A study of Mus musculus with 4 samples.

Results

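Chemokines and their receptors were followed as a family across the cells of mouse hindlimb muscle. The members are all genes named Ccl, Cxcl, Cx3cl, Xcl, Ccr, Cxcr, Xcr or Ackr with a number, together with Cx3cr1. The rule rests on gene names alone, but the family was chosen with earlier results of these data known. They make up 66 of the 32285 genes listed in the count matrices, and 60 different symbols, since 5 symbols stand for more than 1 identifier. Of the 66, 44 are ligands, 18 are signalling receptors and 4 are atypical receptors. At least 20 unique molecular identifiers (UMIs, each a tag of 1 captured RNA molecule) were counted over all cells for 33 of the ligands, 14 of the signalling receptors and all 4 atypical receptors, which makes 51. Another 5 had fewer, namely Ccr3 with 10, Ccr6 with 10, Ccr8 with 6, Cxcl15 with 3 and Ccl20 with 1, and the other 10 (Cxcr1, Ccl27b and further copies of Ccl19, Ccl21 and Ccl27a) had no UMI in any barcode.

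The cells came from the tibialis anterior (TA) and gastrocnemius (GTN) muscles of male mice aged 2 months, 4 mice pooled for each genotype. All mice carried the S100GFP-tg reporter, in which the S100B promoter drives GFP in Schwann cells. The GFP+ libraries also held many other cell types. The controls (WT) carried the reporter alone, and the second genotype (Sod1KO) carried it on a Sod1-/- background, which removes a superoxide-detoxifying enzyme from every cell and not from Schwann cells alone. Live cells of each pool were sorted into GFP+ and GFP- fractions, and each fraction gave 1 library, so the comparison asks which chemokines differ between muscle with stable nerve contacts (WT) and muscle in which they are being lost and remade (Sod1KO).

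After filtering, the GFP+ libraries held 4557 (WT) and 5925 (Sod1KO) cells with median depths of 12293 and 12952 UMIs, and the GFP- libraries 1638 and 5143 cells with 8023.5 and 14658 UMIs. With 1 library per group there is no replicate, so no test could be run, every difference is one between the libraries so labelled, and every interval below is an exact 95% interval that covers counting error only. The UMIs of Sod1 stood at 91.2, 98.1, 124 and 113 counts per 1000000 UMIs (CPM) in the same order of libraries. They come from the 3' end of the transcript, and the part of Sod1 that the allele lacks is not given. The genotype labels were therefore not checked by them, and why the levels were alike was not tested. Between 1 and 13 cell barcodes were shared by any pair of libraries. The members held 0.147%, 0.145%, 0.245% and 0.188% of all UMIs, and 30 of them held 98.9% of the members' total.

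Chemokines are small secreted proteins that guide leukocytes and other cells along gradients. They signal through G protein-coupled receptors, named by the ligand class they bind, while the atypical receptors (Ackr) bind chemokines without G protein signalling and remove or relocate them. In muscle, resident macrophages, fibroblast-like mesenchymal cells and the vessel wall are known sources, homeostatic ligands such as Cxcl12 are made without any stimulus, and inflammatory ligands such as Ccl2 and Cxcl1 are induced by NF-kappaB or interferon signalling.

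Several of the inflammatory ligands share promoter letters, which are shown first because the same genes recur in the comparisons. RefSeq promoters (assembly GRCm38.p6, the 250 bases before a transcription start) were found for 37 of the 51 members. Those without an entry, among them Ccl2, Ccl4, Ccl5, Ccl7, Ccl11, Cxcl5 and Cxcl16, were not searched. A kappaB-like motif (GGG, any 3 bases, then TTCC), searched on both strands, occurred in 6 of these 37 (16.2%), namely Ccl1, Ccl9, Cxcl1, Cxcl2, Cxcl3 and Cxcl10, against 4.65% of 32851 promoters in all. Below, the neutrophil attractants Cxcl1, Cxcl2 and Cxcl3 and the interferon-induced Cxcl10 are set beside Cxcl14, the ligand with the widest differences in Schwann-like cells. The Cxcl14 window holds no match, but it lies within the gene's span (chr13:56288643-56296811). The bases before the outermost start of Cxcl14 were therefore not searched. Each is written 5' to 3' along the gene's strand, with capitals marking matches on either strand and overlapping matches joined.
Cxcl1 (chr5:90890995-90891244, plus strand): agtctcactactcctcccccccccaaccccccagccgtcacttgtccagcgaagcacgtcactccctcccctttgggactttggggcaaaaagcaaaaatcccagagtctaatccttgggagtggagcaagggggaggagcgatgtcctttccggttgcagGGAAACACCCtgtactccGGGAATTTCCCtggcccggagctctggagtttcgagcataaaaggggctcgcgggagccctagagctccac
Cxcl2 (chr5:90903649-90903898, plus strand): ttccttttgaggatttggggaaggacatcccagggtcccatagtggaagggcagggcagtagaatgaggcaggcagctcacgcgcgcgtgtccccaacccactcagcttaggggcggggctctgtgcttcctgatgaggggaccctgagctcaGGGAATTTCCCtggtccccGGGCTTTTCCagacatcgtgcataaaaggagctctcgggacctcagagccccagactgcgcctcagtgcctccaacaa
Cxcl3 (chr5:90785851-90786100, plus strand): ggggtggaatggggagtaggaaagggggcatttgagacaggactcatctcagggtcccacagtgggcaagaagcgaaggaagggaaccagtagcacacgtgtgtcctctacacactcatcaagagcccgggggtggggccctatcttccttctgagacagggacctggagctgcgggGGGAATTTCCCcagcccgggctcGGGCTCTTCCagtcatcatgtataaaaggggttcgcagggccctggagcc
Cxcl10 (chr5:92348890-92349139, minus strand): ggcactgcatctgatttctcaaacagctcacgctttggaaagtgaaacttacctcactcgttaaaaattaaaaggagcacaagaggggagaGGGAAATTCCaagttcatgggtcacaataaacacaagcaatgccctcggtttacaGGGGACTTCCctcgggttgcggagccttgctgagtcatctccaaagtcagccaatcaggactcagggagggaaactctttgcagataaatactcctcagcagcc
Cxcl14 (chr13:56296552-56296801, minus strand): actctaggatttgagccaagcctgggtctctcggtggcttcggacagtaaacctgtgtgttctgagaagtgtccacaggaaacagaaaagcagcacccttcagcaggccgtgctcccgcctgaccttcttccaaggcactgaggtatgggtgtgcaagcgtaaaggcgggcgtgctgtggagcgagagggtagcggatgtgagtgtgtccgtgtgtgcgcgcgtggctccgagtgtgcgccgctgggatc
A match describes these letters and is not evidence of a factor at the site.

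Cells were grouped by a clustering that left the members out, and a cluster was named only from fixed marker genes. Levels are summed UMIs of a gene per 1000000 UMIs of the class (CPM), which count molecules and do not depend on transcript length. A class was compared within a sort where both libraries held at least 50 of its cells, and a member where both libraries together held at least 20 of its UMIs. A log2 ratio of at least 1 in size, Sod1KO over WT, is called past the fold. In all, 258 ratios of members could be computed in 16 comparisons, 11 in GFP+ and 5 in GFP-. Of these, 97 were past the fold, 64 higher and 33 lower in Sod1KO. For 89 of the 97, spread over 35 genes, the counting interval lay wholly on 1 side of 0. These totals include the clusters read below as shallow. Over all genes, the share past the fold ranged from 3.99% (mSC-like cells, GFP+) to 46.5% (cluster 16, GFP-). It was not pooled over the comparisons, and it is given with each class below.

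**Figure D1:**
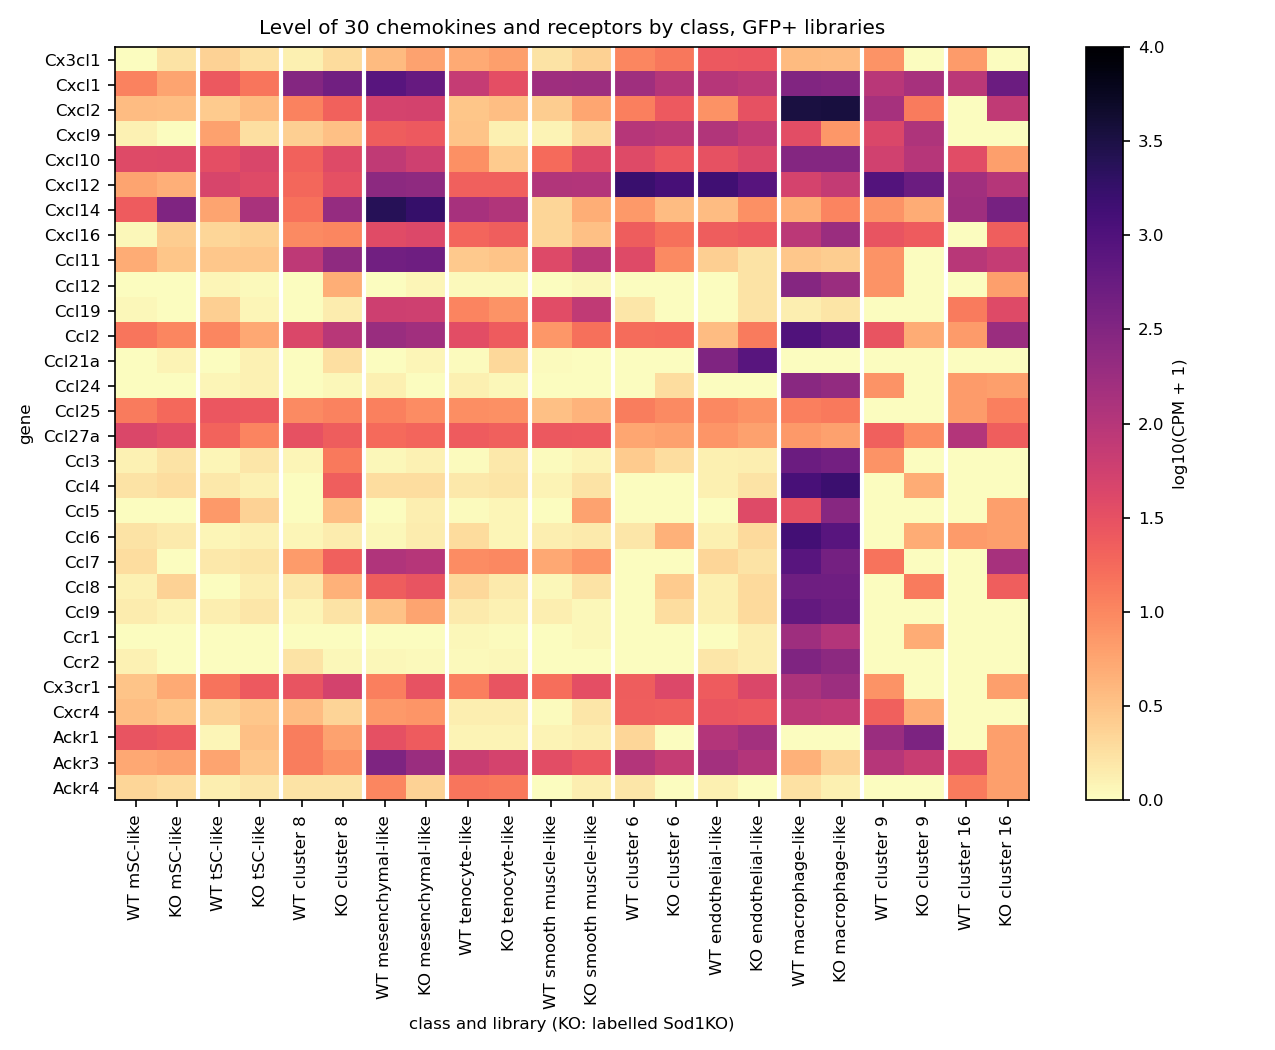
Heat map of the level of the 30 members with the most UMIs in the 11 classes compared in GFP+, with a WT and a Sod1KO (KO) column for each class, where the colour is log10(CPM + 1). Cxcl14 and Ccl11 are darkest in mesenchymal-like cells, Cxcl12 in endothelial-like cells and cluster 6, and most CC ligands in macrophage-like cells.

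The classes differed in how many members moved. In smooth muscle-like cells, 11 of 18 members compared were past the fold, all higher in Sod1KO, against 5.31% of all genes compared there. In cluster 8, an unnamed GFP+ cluster that carried all perineurial markers and 5 of 8 Schwann cell markers, it was 10 higher and 2 lower of 21 (all genes, 9.92%). In pericyte-like cells of GFP- it was 4 higher and 5 lower of 11 (all genes, 9.16%). In these 3 groups over 50% of the members compared were past the fold.

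Clusters 9 and 16 had median depths from 1021 to 1700.5 UMIs per cell and are read as shallow. Cluster 16, with muscle fibre markers, had 4 higher and 1 lower of 7 in GFP+ (all genes, 15.2%) and 3 lower of 4 in GFP- (all genes, 46.5%). Cluster 9, with endothelial and adipocyte markers, had 2 higher and 1 lower of 7 in GFP+ (all genes, 15.6%) and 1 higher and 4 lower of 10 in GFP- (all genes, 11.2%). Their shares are not set against the other classes.

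Among endothelial-like cells, 6 members of 18 were past the fold in GFP+ (all genes, 4.99%) and 6 of 23 in GFP- (all genes, 10.1%), all of them higher in Sod1KO. In cluster 6, which carried endothelial and pericyte markers together, there were 1 higher and 1 lower of 13 in GFP+ (all genes, 5.61%) and 4 higher and 1 lower of 18 in GFP- (all genes, 7.84%). Macrophage-like cells had 7 higher and 3 lower of 32 (all genes, 7.06%), the largest number of members compared in any class. The median log2 ratio of these 32 was −0.02, against −0.06 for all genes compared there.

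Of the Schwann-like cells, those with myelin markers (mSC-like) had 1 member higher and 1 lower of 13 (all genes, 3.99%), and those with markers of terminal, nonmyelinating Schwann cells (tSC-like) had 2 higher and 4 lower of 16 (all genes, 11.6%). Mesenchymal-like cells had 3 higher and 1 lower of 24 (all genes, 6.1%) and tenocyte-like cells 2 higher and 6 lower of 23 (all genes, 4.94%). Most members compared in Schwann-like cells were thus short of the fold. Over whole libraries, 9 members were higher and 1 lower of 48 in GFP+ (all genes, 6.87%) and 8 higher and 5 lower of 41 in GFP- (all genes, 15.9%), but whole libraries mix cell types whose shares differed between the libraries.

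**Figure D2:**
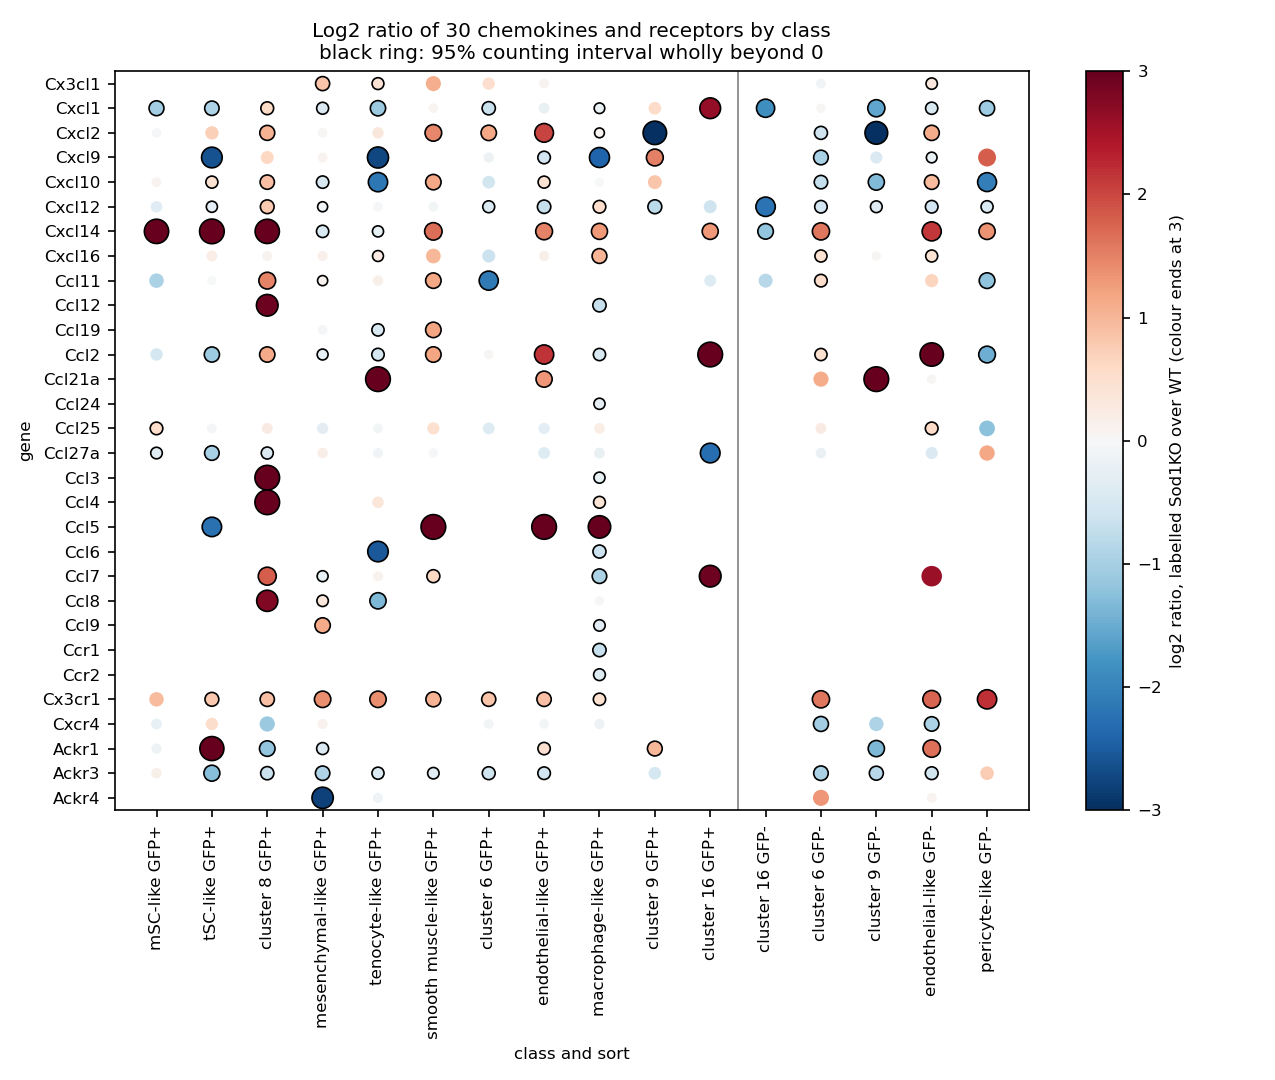
Log2 ratio of Sod1KO over WT for the 30 members with the most UMIs, by class and sort, with red above 0, blue below 0, larger points for larger ratios and a black ring where the 95% counting interval lies wholly on 1 side of 0. No point is drawn where the UMIs were too few. Cx3cr1 lies above 0 in all 12 comparisons that could be made, Cxcl14 in 10 of 13 comparisons, and Cxcl12 below 0 in 14 of 16.

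Cxcl14 (chr13:56288643-56296811, GRCm38), a homeostatic ligand of fibroblasts and epithelia without an agreed signalling receptor, was the member with the largest differences in Schwann-like cells. Its level in cells named mSC-like was 22.9 CPM (19.5–26.8), from 162 UMIs, for WT GFP+ and 334 CPM (317–351), from 1472 UMIs, for Sod1KO GFP+. In tSC-like cells it was 4.71 CPM (3.13–6.81) and 131 CPM (124–138), a log2 ratio of 4.80 (4.26–5.39). In cluster 8 it was 14.1 CPM (11.2–17.4) and 203 CPM (193–214), a log2 ratio of 3.85 (3.54–4.19). In each of these 3 groups the Sod1KO library was the higher, and the intervals of the libraries did not overlap. Over the alternatives in processing, the log2 ratio ranged from 2.80 (stricter cell filter) to 5.11 (5% free RNA subtracted) in mSC-like cells and from 3.56 to 9.15 in cluster 8. Free RNA was not measured, and the profile subtracted was that of all kept cells of the library.

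Many cells of the Sod1KO library carried a Cxcl14 UMI, although the 10 richest cells of each group held a large part of the UMIs. The share of mSC-like cells with a Cxcl14 UMI was 5.59% in WT and 23.1% in Sod1KO, and 1.77% (1.07–2.75) and 10.3% (8.11–12.9) once each cell was thinned to 1000 UMIs. In cluster 8 the shares were 12.3% and 48.7%, and 0.323% and 11.5% when thinned, where the WT share was 1 cell. In tSC-like cells they were 3.42% and 24.3%, and 0.528% and 6.56% when thinned, where the WT share was 2 cells. For comparison, smooth muscle-like cells, which had little Cxcl14, had shares of 2.61% and 5.46% at median depths of 20644 and 16830 UMIs, and 0% (0 of 612 cells, which allows up to 0.490%) and 0.840% when thinned. The Sod1KO shares of mSC-like cells, tSC-like cells and the unnamed cluster 8 stood above that level. The 10 cells richest in Cxcl14 held 42.6% of its UMIs in Sod1KO mSC-like cells, 48.8% in tSC-like cells and 43.8% in cluster 8.

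Within the tSC-like cells, Cxcl14 followed the cluster. Cluster 7, with 33 WT and 590 Sod1KO cells, had 49.6 CPM (26.4–84.9) in WT and 185 CPM (175–195) in Sod1KO. Cluster 13, with 307 and 175 cells, had 2.04 CPM (1.02–3.64) and 4.67 CPM (2.42–8.17). The small tSC-like clusters 32 (13 and 88 cells) and 34 (27 and 33 cells) had 3 and 15 and 1 and 2 UMIs, at 63.2 and 32.4 CPM and 4.27 and 6.86 CPM, with overlapping intervals. The ratio over all tSC-like cells thus spans clusters that the libraries filled unequally, and it ranged from 0.56 (without removal of doublets) to 7.84 (5% free RNA subtracted).

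Mesenchymal-like cells held most Cxcl14 in every library but WT GFP-, and there the direction was the opposite one. Their level was 2431 CPM (2394–2468) in WT GFP+ and 1732 CPM (1708–1756) in Sod1KO GFP+, a log2 ratio of −0.49. Cluster 11, the highest of them, fell from 8103 to 3104 CPM (80 and 315 cells), while clusters 4 and 5 had 1951 and 1211 CPM in WT against 1714 and 777 CPM in Sod1KO. Tenocyte-like cells had 134 and 109.9 CPM. Sorted as GFP-, Sod1KO mesenchymal-like cells had 1481 CPM, and the 43 WT cells of that class, too few for a comparison, had 669 CPM.

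Because mesenchymal cells are so rich in Cxcl14, their markers were read beside it in the Schwann-like cells and in cluster 8. The 9 mesenchymal markers summed to 791 (WT) and 766 CPM (Sod1KO) in mSC-like cells, 718 and 474 CPM in tSC-like cells, and 16784 and 13821 CPM in cluster 8, so their sum was lower in Sod1KO in each. Single markers did not all follow the sum, since Dpt was 1.42 and 2.72 CPM in mSC-like cells, 7.40 and 10.5 CPM in tSC-like cells and 0.992 and 5.94 CPM in cluster 8, and Dcn was 121 and 133 CPM in tSC-like cells. For every 100 UMIs of Dcn, the most abundant of these markers, mesenchymal-like cells had 13.3 UMIs of Cxcl14 in WT and 10.8 in Sod1KO, mSC-like cells had 9.36 and 159, tSC-like cells 3.89 and 98.5, and cluster 8, itself rich in Dcn, 0.121 and 2.20.

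**Figure D3:**
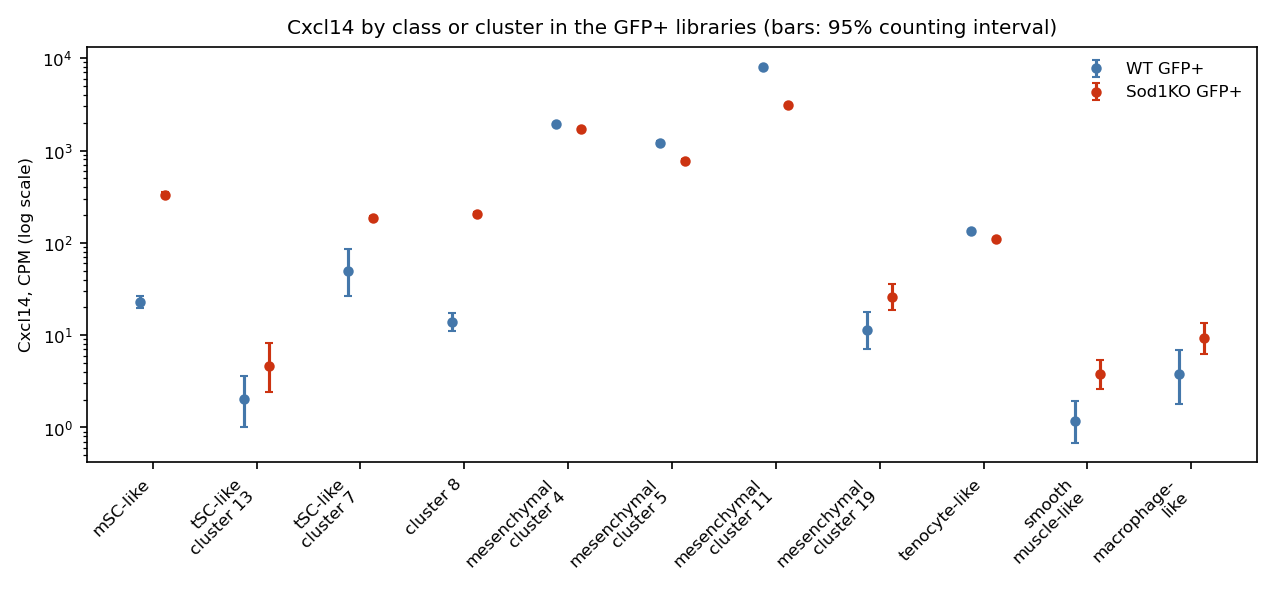
Cxcl14 level (CPM, log scale) by class or cluster in the WT (blue) and Sod1KO (red) GFP+ libraries, with exact 95% intervals from counting as bars. Sod1KO is above WT in mSC-like cells, tSC-like clusters 7 and 13 and cluster 8, and below it in mesenchymal clusters 4, 5 and 11.

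Smaller amounts were read elsewhere. Cxcl14 was 1.19 and 3.78 CPM in smooth muscle-like cells (log2 ratio 1.67), 3.79 and 9.37 CPM in macrophage-like cells (1.31) and 2.64 and 7.44 CPM in endothelial-like cells of GFP+ (1.50). In the GFP- sort, cluster 6 had 2.26 and 6.85 CPM, and pericyte-like cells had no UMI in WT and 24 in Sod1KO. With 5% free RNA subtracted, too few of these UMIs were left in smooth muscle-like, macrophage-like and GFP+ endothelial-like cells for a ratio.

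Cxcl12, the ligand of Cxcr4 and of the scavenging receptor Ackr3 and a retention signal for many cells, had the most UMIs of all members and was lower in the Sod1KO libraries across the vessel wall. In capillary-like cells the GFP+ libraries had 1665 CPM (1609–1723, WT) and 1144 CPM (1092–1198, Sod1KO), and the GFP- libraries 1519.5 CPM (1486–1554) and 1076 CPM (1060.5–1092). In arterial-like cells the levels were 1404 and 920.4 CPM in GFP+ and 1349 and 1066 CPM in GFP-. In pericyte-like cells they were 1217 CPM (40 cells) and 845 CPM (46 cells) in GFP+ and 1829 and 1335 CPM in GFP-. In each of these 3 cell types both WT libraries were above the Sod1KO library of the same sort.

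Over all endothelial-like cells Cxcl12 had log2 ratios of −0.71 in the GFP+ sort (−0.78 to −0.64) and −0.55 in the GFP- sort (−0.58 to −0.51), short of the fold. It lay below 0 in 14 of the 16 comparisons, with the whole interval below 0 in 10, although classes of 1 sort share the same pair of libraries and are not replicates. The 2 exceptions were cluster 8, at 17.9 and 30.7 CPM (0.78), and macrophage-like cells, at 49.2 and 72.7 CPM (0.56). Mesenchymal-like cells had 246 and 229 CPM.

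Among the neutrophil-attracting ligands, Cxcl1 was read in all 16 comparisons, and its direction depended on the class. Mesenchymal-like cells had 808 CPM (787–830.0) and 601 CPM (587–616) in the WT and Sod1KO GFP+ libraries, a log2 ratio of −0.43. Tenocyte-like cells had 70.3 CPM (66.7–74.1) and 32.3 CPM (30.4–34.3), a log2 ratio of −1.12 (−1.24 to −1.01). Pericyte-like cells of GFP- had 294 and 138 CPM, a log2 ratio of −1.09. Cluster 8 went the other way, from 303 to 457 CPM, a log2 ratio of 0.59, and smooth muscle-like cells had 169 and 175 CPM.

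In Schwann-like cells Cxcl1 was scarce and lower in Sod1KO, at 9.77 and 4.76 CPM in mSC-like cells (log2 ratio −1.04, −1.82 to −0.32) and 25.1 and 13.2 CPM in tSC-like cells (−0.93, −1.27 to −0.59). The mSC-like value was −0.39 without removal of doublets and −1.97 with the stricter cell filter.

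Cxcl2, a product of activated macrophages, had 93.5% of its WT GFP+ UMIs and 90.8% of its Sod1KO GFP+ UMIs in macrophage-like cells. Its level there was 3301 CPM (3232–3371) in WT and 3461 CPM (3396–3527) in Sod1KO, a log2 ratio of 0.07. In endothelial-like cells it was far lower, with ratios above 0 in both sorts, at 7.33 and 29.8 CPM in GFP+ (log2 ratio 2.02, 1.37–2.72) and 6.17 and 13.3 CPM in GFP- (1.11, 0.64–1.60, and 0.95 with the stricter filter). In GFP+ fewer Sod1KO cells (9 of 238) than WT cells (16 of 270) carried a UMI, 1 Sod1KO cell held 41 of the 88 UMIs, and the ratio without the top cell of each library, a setting chosen after seeing the data, was 1.60. Cxcl5, which acts on the same receptor Cxcr2, was 2.19 CPM (15 UMIs) in WT and 11.1 CPM (129 UMIs) in Sod1KO mesenchymal-like cells, a log2 ratio of 2.34 (1.57–3.22), and 4.30 and 14.0 CPM in cluster 8, a log2 ratio of 1.71 (1.08–2.39). Cluster 11 held most of the mesenchymal Cxcl5, at 8.58 and 31.9 CPM. Cxcl3 had 5 and 50 UMIs in macrophage-like cells, of which 25 were in 1 Sod1KO cell. Cxcr2 itself had 55 UMIs in all and could not be compared.

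Cxcl9 and Cxcl10, interferon-induced ligands of the T cell receptor Cxcr3, did not move together. In capillary-like cells Cxcl9 was 157 and 114 CPM in GFP+ and 127 and 119 CPM in GFP-. Over endothelial-like cells of GFP- Cxcl10 was 16.6 and 32.2 CPM, a log2 ratio of 0.95 (0.67–1.25), while Cxcl9 was 101 and 87.4 CPM (−0.21). In macrophage-like cells Cxcl10 was 301 CPM in both GFP+ libraries, and 83 of the 90 Cxcl9 UMIs of WT were in 1 cell. Cxcl10 was lower in Sod1KO tenocyte-like cells (7.47 and 1.65 CPM, −2.18), with 62 of the 147 WT UMIs in 1 cell, and in pericyte-like cells of GFP- (27.2 and 6.47 CPM, −2.07). It was 37.4 and 39.4 CPM in mSC-like and 32.1 and 43.9 CPM in tSC-like cells.

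Cxcl16, a membrane-bound ligand and scavenger receptor of myeloid cells, was 88.3 CPM (77.3–100.4) in WT and 178 CPM (163–194) in Sod1KO macrophage-like cells, a log2 ratio of 1.01 (0.79–1.24). The top cell held 11.6% of its UMIs in WT and 3.09% in Sod1KO, and the ratio over the alternatives ranged from 0.82 to 1.14, on either side of the fold. The B cell attractant Cxcl13 was read mainly in mesenchymal-like cells, at 41.9 and 32.8 CPM.

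Of the CC ligands, the monocyte attractants Ccl2, Ccl7 and Ccl12 were lower in Sod1KO over the macrophage-like class, while its subclusters went both ways. Ccl2 was 964 CPM (927–1002) in WT and 690.2 CPM (661–720.1) in Sod1KO (log2 ratio −0.48), Ccl7 was 833 and 432 CPM (−0.95, −1.04 to −0.85), and Ccl12 was 287 and 179 CPM (−0.68). When the macrophage-like class was clustered again, subcluster 1, which also carried mast cell genes, had 2916 and 774 CPM of Ccl7 (31 WT and 38 Sod1KO cells) and held 1508 of the 2199 WT UMIs and 423 of the 1336 Sod1KO UMIs. Subcluster 3, with monocyte, neutrophil and mast cell genes, went the other way (12 WT and 24 Sod1KO cells), with Ccl2 at 154 and 1058 CPM, Ccl7 at 38.6 and 504 CPM and Ccl12 at 12.9 and 107 CPM, although WT had 12, 3 and 1 UMIs. Ccl7 was also higher in Sod1KO in subclusters 0 (455 and 729 CPM) and 4 (253 and 398 CPM), as was Ccl2 in subcluster 4 (583 and 837 CPM). None of the 3 ratios over the class reached the fold.

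The other macrophage ligands did not share 1 direction. Ccl6 was 1286 and 827 CPM (log2 ratio −0.64), Ccl9 648 and 513 CPM (−0.34) and Ccl3 539.8 and 446 CPM (−0.28), all lower in Sod1KO. Ccl4, an attractant of monocytes and T cells, was 1169 and 1543 CPM (0.40). Ccl8 was 488 and 479 CPM and Ccl24, an eotaxin, 264 and 216 CPM, and both were read mainly in subclusters 0 and 2, which carried Cd163 and Mrc1. Within subcluster 0 Ccl8 was 189 CPM (20 UMIs, 9 cells) in WT and 1737 CPM (684 UMIs, 37 cells) in Sod1KO, and within subcluster 2 it was 1763 and 1670 CPM. In the GFP- sort the macrophage-like class held 21 WT and 77 Sod1KO cells, too few in WT for a comparison.

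The largest ratios in macrophage-like cells came from few cells. Ccl22, a ligand of Ccr4, had 6 UMIs in WT and 492 in Sod1KO, of which 461 were in 1 cell. Ccl5 had 81 and 865, with 453 in 1 cell, and Ccl17 had 213 and 97, with 149 of the WT UMIs in 1 cell. A subcluster with dendritic cell markers (2 WT and 15 Sod1KO cells in GFP+) held 96.7% of the Ccl22 UMIs of the class and 57.0% of those of Ccl5. The class thus mixes leukocyte types in unequal number, and these ratios are not read as differences within macrophages.

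The eosinophil attractant Ccl11 was read mainly in mesenchymal-like cells, at 459.7 CPM in WT GFP+ and 499.9 CPM in Sod1KO GFP+. In cluster 8 it was 82.2 CPM (75.1–89.7) and 232 CPM (221–243), a log2 ratio of 1.50 (1.35–1.64). Ccl2 in the same cluster was 42.2 and 92.2 CPM (1.13, 0.92–1.34, and 0.64 without removal of doublets) and Ccl7 5.95 and 20.9 CPM (1.81, 1.28–2.38). Il6, an NF-kappaB target outside the family, was 26.5 and 88.2 CPM there, so 2 monocyte attractants, an eotaxin and Il6 were all higher in that Sod1KO cluster. The list that holds Il6, of 17 inflammatory cytokines and NF-kappaB feedback genes, did not rise as a whole. There 2 of 11 compared were past the fold, the median log2 ratio was 0.04 against 0.01 for all genes, and the summed level was 1101 and 1037 CPM. The macrophage ligands Ccl4, Ccl3 and Ccl12 were also past the fold in cluster 8, but 138 of 160, 82 of 88 and 25 of 28 Sod1KO UMIs were in 1 cell each, and the leukocyte gene C1qa rose from 4 to 51 UMIs.

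In smooth muscle-like cells the ligands past the fold lay in a small cluster. Ccl19, a ligand of Ccr7, was 34.7 CPM (31.6–38.0) in WT and 78.3 CPM (72.4–84.5) in Sod1KO, Ccl11 38.7 and 86.9 CPM, Cxcl10 16.8 and 37.4 CPM and Ccl2 6.45 and 14.5 CPM, each with a log2 ratio of 1.16 or 1.17. Cluster 23, which carried smooth muscle and pericyte markers, made up 56 of 612 WT and 81 of 476 Sod1KO cells. Within it Ccl19 was 462 and 569.9 CPM, Ccl11 524 and 641 CPM, Cxcl10 177 and 255 CPM and Ccl2 74.3 and 105 CPM, so the differences within the cluster were short of the fold. Outside it, in cluster 3, Ccl19 was 1.12 and 2.32 CPM. Under the stricter cell filter the count of 11 members fell to 2, and the 42 UMIs of Ccl5, 55 of Xcl1 and 76 of Ccl1 were each in 1 Sod1KO cell. Leukocyte markers summed to 16.4 CPM in WT and 45.5 CPM in Sod1KO in this class, and their part in the result was not tested.

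The lymphatic ligand Ccl21a, which draws Ccr7-bearing cells into lymph vessels, was counted almost wholly in endothelial-like cells, with between 96.4% and 99.7% of its UMIs in each library. The lymphatic-like cells, which had most of it, numbered 5 (WT) and 8 (Sod1KO) in GFP+, at 24462 and 17196 CPM, and 15 and 107 in GFP-, at 18930 and 11389 CPM. The endothelial ratio of 1.33 in GFP+ (331 and 829.8 CPM) rests on 3 WT and 7 Sod1KO cells with any UMI, of which 1 WT cell held 71.7% of the WT UMIs, and it was 0.46 as the mean of each cell's CPM and 2.21 without the top cell of each library. In GFP- the levels were 928 and 945 CPM.

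Ligands with a steady low level made up the rest. Ccl27a, whose gene overlaps Il11ra1 on the opposite strand, was 42.5 and 33.1 CPM in mSC-like cells (log2 ratio −0.36) and 18.8 and 9.66 CPM in tSC-like cells (−0.96, −1.36 to −0.57). Ccl25, a ligand of Ccr9, was 11.8 and 17.2 CPM in mSC-like cells (0.55) and 26.2 and 25.1 CPM in tSC-like cells, where its level was highest among the GFP+ classes compared. Cx3cl1, the membrane-bound ligand of Cx3cr1, was read in arterial-like cells at 48.2 (WT) and 46.1 CPM (Sod1KO) in GFP+ and 37.0 and 49.8 CPM in GFP-, with overlapping intervals.

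Among the receptors, Cx3cr1 (chr9:120048683-120068296, GRCm38), the fractalkine receptor of monocytes and macrophages, was higher in the Sod1KO library in all 12 comparisons. In macrophage-like cells it was 122 CPM (109–136) in WT and 171 CPM (157–186) in Sod1KO, a log2 ratio of 0.49. In endothelial-like cells it was 22.9 CPM (18.1–28.5) and 42.6 CPM (35.5–50.7) in GFP+, and 16.4 CPM (13.5–19.7) and 54.8 CPM (51.8–57.8) in GFP-, with log2 ratios of 0.90 and 1.74 (1.47–2.03). In tenocyte-like cells it was 10.8 CPM (9.37–12.3) and 28.3 CPM (26.5–30.2), a log2 ratio of 1.39. The libraries did not overlap in these intervals in any of the 3 classes.

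The other classes showed the same order. Mesenchymal-like cells had 10.9 and 28.8 CPM (log2 ratio 1.40), smooth muscle-like cells 15.5 and 32.2 CPM (1.05), cluster 8 27.4 and 51.1 CPM (0.90) and tSC-like cells 13.8 and 24.0 CPM (0.80). In GFP- the log2 ratio was 2.18 (1.09–3.53) in pericyte-like cells and 1.61 (1.30–1.93) in cluster 6. The interval lay wholly above 0 in 11 of the 12 comparisons and 6 were past the fold, the exception being mSC-like cells at 2.12 and 4.08 CPM (0.94, −0.13 to 2.03).

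Cx3cr1 outside macrophages was spread over many cells. In Sod1KO GFP- endothelial-like cells 37.0% carried a UMI, against 15.6% in WT, at median depths of 11952 and 10893 UMIs, and 5.70% (4.63–6.94) against 1.80% (0.825–3.38) when thinned to 1000 UMIs. The share in mSC-like cells, the class with the lowest level, was 0.186% in WT and 0.304% in Sod1KO when thinned. Leukocyte markers were low in most of these classes. For every 1000 UMIs of the 10 leukocyte markers, GFP+ macrophage-like cells had 6.47 UMIs of Cx3cr1 in WT and 10.1 in Sod1KO. Tenocyte-like cells had 400 and 945. The number also rose in GFP+ mesenchymal-like cells (295 and 1573), mSC-like cells (152 and 290) and cluster 8 (1025 and 1355). It fell in GFP+ endothelial-like cells (1147 and 685), smooth muscle-like cells (946 and 706) and cluster 6 (459 and 338). In tSC-like cells it was 2.94 and 55.4. The WT marker sum there was 4695 CPM, of which Csf1r was 1.18 CPM and Ptprc and C1qa 0.168 CPM each. Ptprc and C1qa were below 5 CPM in GFP+ and GFP- endothelial-like cells.

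**Figure D4:**
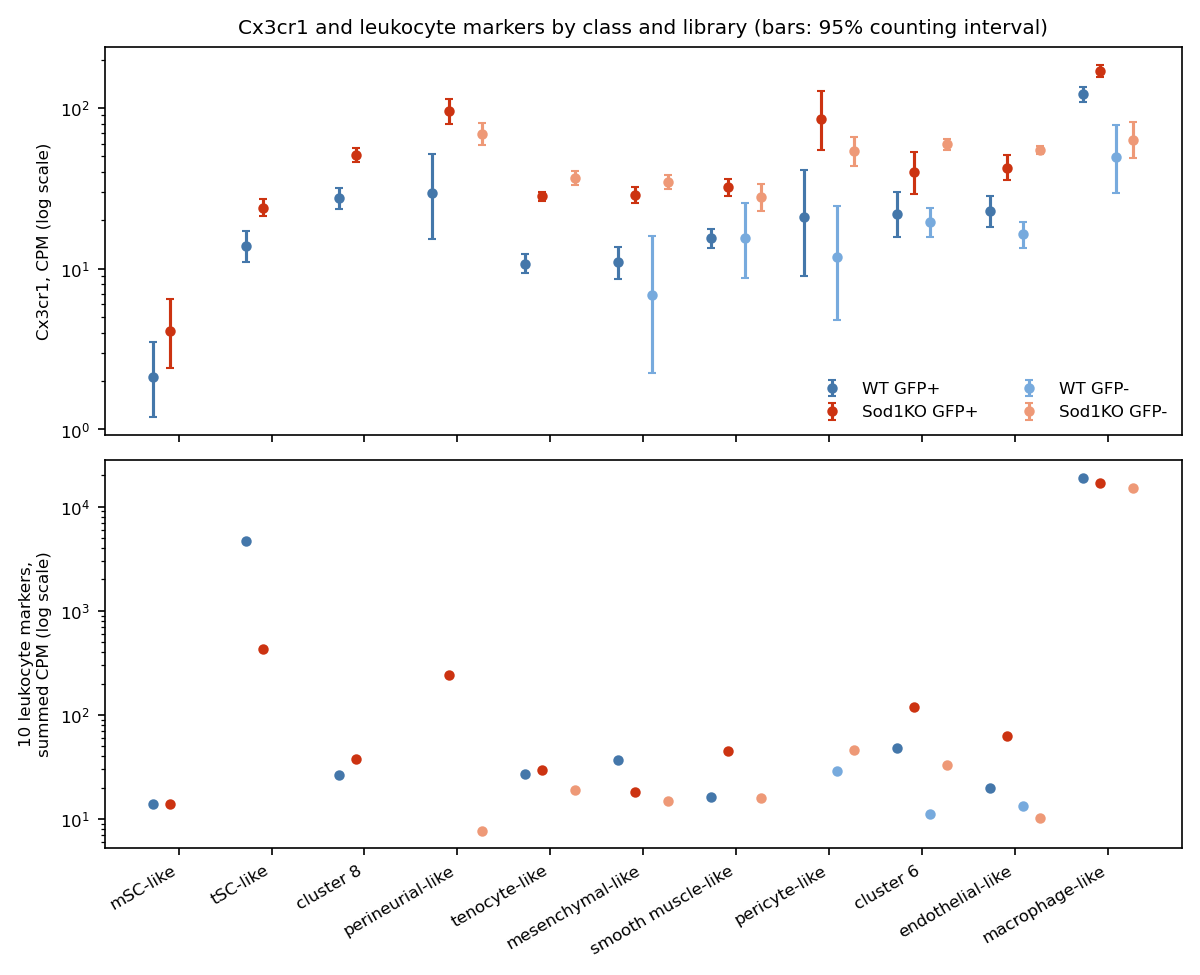
Upper panel, Cx3cr1 level (CPM, log scale) by class and library with exact 95% counting intervals as bars, for classes with at least 20 cells in the library. Lower panel, summed CPM of 10 leukocyte markers (log scale) in the classes with at least 50 cells. Cx3cr1 is higher in the Sod1KO library of each class and sort drawn with both, while the leukocyte markers are highest in macrophage-like and then in WT tSC-like cells.

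The annotation around the gene was also read. On the opposite strand the lncRNA Gm33858 overlaps Cx3cr1 and had 0 UMIs. Of the genes nearby, Ttc21a, 80.9 kb away, had log2 ratios of 0.94 (GFP+) and 1.32 (GFP-) over whole libraries, where Cx3cr1 had 1.00 and 1.54, while Csrnp1, 62.7 kb away, had −0.55 and −0.67. The part of the genomic position or of the 3' reads' origin in the Cx3cr1 result was not tested.

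Receptors known from leukocytes were read in macrophage-like cells. Ccr2, the receptor of Ccl2 and Ccl7, was 329.6 CPM (308–352) and 250.1 CPM (233–268) in the WT and Sod1KO GFP+ libraries (log2 ratio −0.40) and Ccr1 was 170.5 and 106 CPM (−0.69). Neither was past the fold. Ccr7, the receptor of Ccl19 and Ccl21a, had 21 UMIs in WT and 133 in Sod1KO, with 69 in 1 cell, and Xcr1, a receptor of cross-presenting dendritic cells, had 4 and 69, of which 90.8% in the class were in the dendritic-like subcluster. Cxcr3 had 12 and 21 UMIs, too few for more than the ratio of 0.58 (−0.51 to 1.73).

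Cxcr4, the receptor of Cxcl12, was read in macrophage-like cells at 83.7 and 75.3 CPM and in capillary-like cells at 37.6 (WT) and 38.1 CPM (Sod1KO) in GFP+ and 55.8 and 26.4 CPM in GFP-. Over endothelial-like cells GFP- had a log2 ratio of −0.94 (−1.14 to −0.74), and GFP+ had −0.07 (−0.53 to 0.38). Cxcr5, Ccr10, Ccl26 and Cxcl17 had ratios with intervals across 0 wherever they were compared.

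The atypical receptor Ackr3, which takes up Cxcl12, was lower in the Sod1KO libraries in 11 of 13 comparisons, with the whole interval below 0 in 10. In endothelial-like cells the GFP+ libraries had 151 CPM (138–165, WT) and 104 CPM (92.2–116, Sod1KO), and the GFP- libraries 152 CPM (143–162) and 102 CPM (97.5–106). In mesenchymal-like cells it was 345 and 181 CPM (log2 ratio −0.93), and within clusters 19 and 4 it was 1013 and 855 CPM and 188 and 141 CPM, so the difference was smaller within these clusters than over the class. Satellite-like cells had 151 CPM (38 WT cells) and 226 CPM in GFP+, and 292 CPM in the Sod1KO library of GFP-. Ligand and scavenger were thus both lower in the endothelial-like cells of both sorts.

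**Figure D5:**
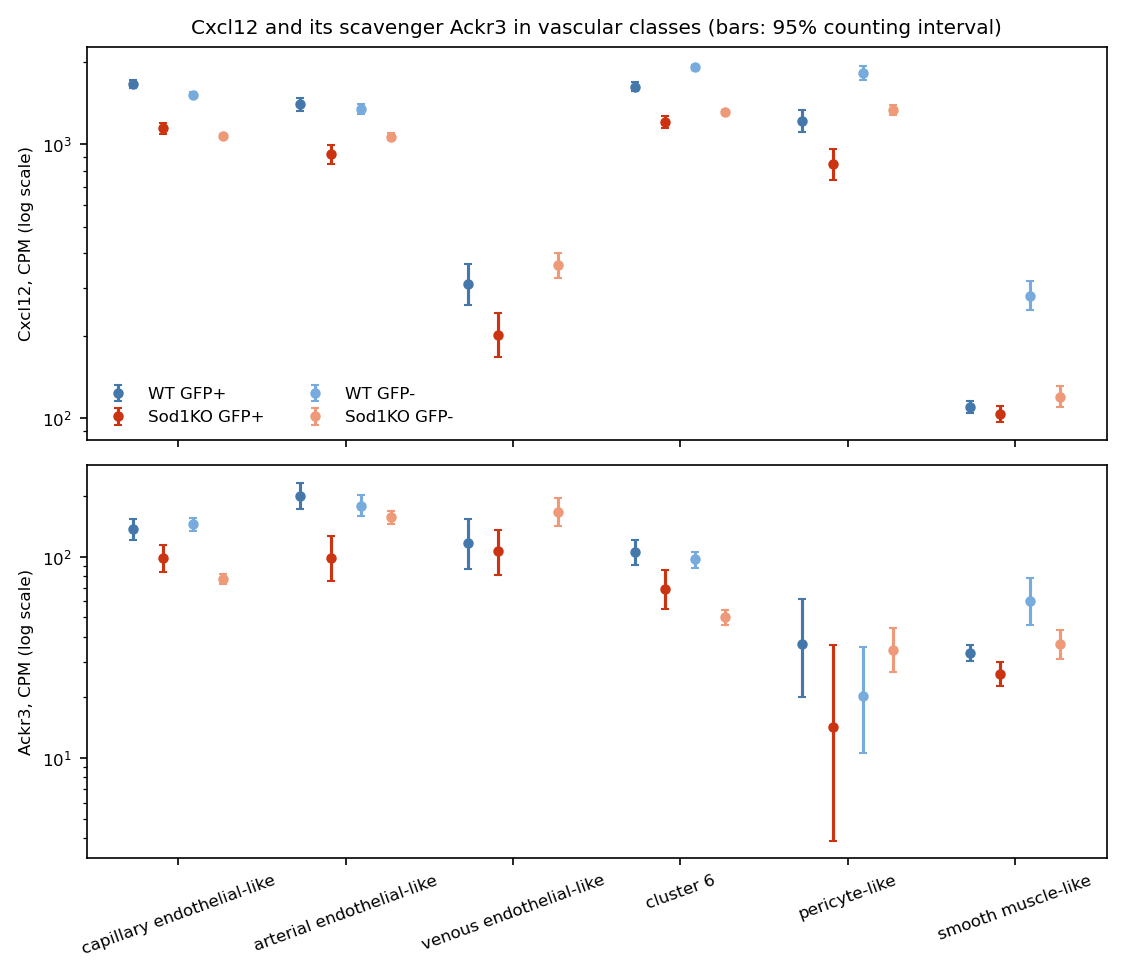
Cxcl12 (upper panel) and Ackr3 (lower panel) levels (CPM, log scale) in vascular classes with at least 20 cells in a library, for the 4 libraries, with exact 95% intervals from counting as bars. In capillary-like, arterial-like and pericyte-like cells Cxcl12 is lower in the Sod1KO library of each sort, as is Ackr3 in capillary-like cells.

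Ackr1, which carries inflammatory chemokines across venules, was highest in venous-like cells, at 814 CPM (28 WT cells) and 747 CPM (42 Sod1KO cells) in GFP+ and 415 CPM (65 Sod1KO cells) in GFP-. In mSC-like cells it was 28.0 CPM (24.3–32.2) and 25.2 CPM (20.7–30.3). Its gene overlaps Cadm3 on the same strand, so reads of these genes cannot always be told apart. In cluster 8 it was lower in Sod1KO, at 11.4 and 5.00 CPM (log2 ratio −1.19), and in tSC-like cells it had 1 UMI in WT and 25 in Sod1KO. The endothelial ratio in GFP- was 1.66 (1.18–2.17), with 5 venous-like cells in WT and 65 in Sod1KO.

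Ackr4, the scavenger of Ccl19, Ccl21 and Ccl25, was 9.04 CPM (62 UMIs) in WT and 1.29 CPM (15 UMIs) in Sod1KO mesenchymal-like cells of GFP+, a log2 ratio of −2.81 (−3.73 to −1.98). Cluster 4 carried most of it, at 22.0 and 3.09 CPM. The Sod1KO mesenchymal-like cells of GFP- had 9.39 CPM (7.73–11.3), a level within the counting interval of WT GFP+, and tenocyte-like cells had 13.3 and 12.2 CPM in GFP+. Of these libraries, the low level was seen in Sod1KO GFP+. Ackr2, a scavenger of inflammatory CC chemokines, was 12.7 and 7.31 CPM in mesenchymal-like cells, and 43.7 and 43.0 CPM within cluster 19. In tenocyte-like cells it had 24 UMIs in WT and 2 in Sod1KO.

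Small counts were past the fold in several more places. In tSC-like cells Ccl2 was 9.25 and 4.32 CPM (log2 ratio −1.10, and −0.88 without the top cell) and Ackr3 4.71 and 1.93 CPM (−1.29, and −0.09 as the mean of each cell's CPM), while the Ccl5 and Cxcl9 UMIs of WT were nearly all in 1 cell each (35 of 36 and 28 of 30). Tenocyte-like cells had 18 and 5 UMIs of Ccl6 and 22 and 14 of Ccl8, with log2 ratios of −2.55 (−0.24 without removal of doublets) and −1.36 (−0.42 with the stricter filter). Mesenchymal-like cells had 15 and 56 UMIs of Ccl9, a log2 ratio of 1.14 (0.81 as the mean of each cell's CPM). In endothelial-like cells of GFP+, 109 UMIs of Ccl5 and 51 of Ccr7 were in 1 Sod1KO cell each, and 27 of 35 UMIs of Ccl2 were too. Ccl2 in GFP- endothelial-like cells had 2 and 77 UMIs, a log2 ratio of 3.52 (1.62–6.59) that was 0.14 at clustering resolution 2. Pericyte-like cells of GFP- had 73.0 and 26.4 CPM of Ccl2 (−1.47, and −0.68 without the top cell) and 57.7 and 24.8 CPM of Ccl11 (−1.22, and −0.45 without it).

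Other genes of the same pathways were read from fixed lists. Of 15 further genes of the chemokine system (platelet ligands, binding partners, G protein and arrestin genes), none was past the fold in mSC-like cells or in GFP+ whole libraries, and in tSC-like cells 1 of 11 compared was, the platelet factor Pf4, at 1.18 and 5.24 CPM. In macrophage-like cells the platelet ligand Ppbp was the only one of 15 past the fold, at 3.41 and 10.7 CPM. Of 17 inflammatory cytokines and NF-kappaB feedback genes, 3 of 12 compared were higher in Sod1KO endothelial-like cells of GFP-, with Il6 at 3.44 and 20.1 CPM. The list's median log2 ratio there was 0.07 against 0.002 for all genes, and its summed level was 1314 and 1276 CPM. In pericyte-like cells 3 of 8 were lower, and the median log2 ratio was −0.93 against −0.05 for all genes. In macrophage-like cells Il1b was higher in Sod1KO (277 and 637 CPM) and Il33 lower, of 13 compared.

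Of 10 interferon response genes, 4 were lower in Sod1KO tSC-like cells, including Irf1 at 462 and 208 CPM, with a list median of −0.85 against −0.03 for all genes, and Cxcl10 did not share that direction. In cluster 8, 3 were higher, including Ifit1 at 8.10 and 30.7 CPM, and the median was 0.65 against 0.01. The summed level of the 10 genes there went the other way, at 1086 CPM in WT and 812 CPM in Sod1KO. In smooth muscle-like cells 2 were higher, while the summed level of the 10 was 553 and 488 CPM. Ptgs2, an NF-kappaB target, was 3.11 and 33.5 CPM in that class. It was the only 1 of 9 compared from the inflammatory list past the fold there. That list had a median of 0.06 against 0.02 for all genes and a summed level of 1110 and 1029 CPM. Immediate early and heat shock genes, which cell dissociation is known to induce, had none of 12 past the fold in mSC-like, mesenchymal-like, smooth muscle-like, tenocyte-like, macrophage-like or endothelial-like cells, and 2 higher in tSC-like cells. In the shallow cluster 16 they had 4 higher and 1 lower of 11 in GFP+ (median 0.74, −0.12 for all genes) and 10 lower of 12 in GFP- (median −1.67, −0.20 for all genes), and in cluster 9 of GFP- 2 were lower.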

How the data were processed

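The deposited values were raw UMI counts per gene and barcode, made by the authors with Cell Ranger (7.1.0 in the submitters' processing notes, which also name mm10). Ambient RNA was not removed from the deposited counts. Cells needed more than 200 genes and under 10% mitochondrial UMIs, and the highest doublet scores were removed at 0.8% per 1000 barcodes (50 neighbours). Clustering used 2000 variable genes without the members, 30 components, 20 neighbours and Leiden resolution 1 (Python 3.11.15, scikit-learn 1.9.0, igraph 0.11.9, leidenalg 0.10.2). Intervals (scipy 1.17.1) were exact Poisson for CPM, conditional binomial for ratios and Clopper-Pearson for shares. Counts of 0 entered ratios as 3 UMIs, and no ratio was given where both libraries had 3 or fewer. Named were the 30 members with the most UMIs and any member past the fold whose interval lay wholly on 1 side of 0, and of other lists up to 4 genes past the fold per class. The members and lists were chosen with earlier results of these data known. The scripts were tested on simulated data. The macrophage-like class was clustered again (1000 genes, 15 components, 15 neighbours). Gene overlaps came from GENCODE vM39, where 26 of 51 members overlapped another gene, 6 of them on the same strand. Results for some genes are not reported here.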

Additional observations from a re-analysis of the deposited data

Results flagged for a closer look

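In 3 clusters compared in both sorts, a member lay on opposite sides of 0 with intervals that excluded 0, and the difference between the sorts was not tested. In cluster 16 the log2 ratio of Cxcl14 was 1.31 (0.67–1.97) in GFP+ and −1.18 (−2.17 to −0.12) in GFP-, and that of Cxcl1 was 2.63 (1.84–3.52) and −1.87 (−2.47 to −1.25). Of the Cxcl1 UMIs of Sod1KO in GFP+, 89 of 101 were in 1 cell, and the GFP+ ratio without the top cells was 0.31. The GFP- ratio of Cxcl14 was −0.13 as the mean of each cell's CPM. The immediate early and heat shock genes of that cluster had medians of 0.74 in GFP+ and −1.67 in GFP-, and their part in the result was not tested. In cluster 6 Cxcl2 had 1.15 (0.26–2.07) and −0.63 (−1.15 to −0.10), and Ccl11 had −2.13 (−3.26 to −1.16) and 0.54 (0.19–0.91). In cluster 9 Ackr1 had 1.01 (0.37–1.70) and −1.35 (−2.22 to −0.52). Clusters 9 and 16 were shallow.

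Some of the members' UMIs were in classes with too few cells in a library for a comparison. In GFP+ they were 6.70% (6.55–6.85) of the members' UMIs in the WT and 7.07% (6.93–7.21) in the Sod1KO library, and in GFP- 31.1% (30.6–31.5) and 47.5% (47.2–47.7). They include the Cxcl14 of GFP- mesenchymal-like cells and the 642 CPM of Ccl2 in 68 cycling cells of Sod1KO GFP-.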

How the results depend on the processing

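No paired analysis was possible because each group is 1 library and the labels give no replicate numbers. Of the 89 ratios past the fold with intervals on 1 side of 0, 88 stayed past it with median-of-ratios scaling. Without doublet removal 81 of 89 did, and with the mean of each cell's CPM 70 of 89. A total below 89 counts the ratios that could still be compared. It was 83 of 86 with the members in the clustering, 78 of 83 at clustering resolution 2 and 75 of 75 with 5% free RNA subtracted. The stricter filter (over 500 genes, under 5% mitochondrial UMIs) gave 54 of 63. In a setting chosen after seeing the data, without each member's top cell, 67 of the 89 could be compared and 57 stayed past the fold. The ratios that could not be compared had too few UMIs left without that cell. The rest could be compared but fell short of the fold, such as Ccl17 in macrophage-like cells (−1.36 to −0.62). A minimum of 50 UMIs kept 62 of the 89, but that setting can only drop a ratio and cannot change it. The whole-library counts of 10 and 13 stayed within 1.5 times.

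Counts of members past the fold that moved by over 1.5 times were as follows. Subtracting free RNA gave 3 in cluster 6 of GFP-, 1 in mSC-like and 5 in tenocyte-like cells. A minimum of 50 UMIs gave 3 in cluster 6 and 3 in cluster 9 of GFP-, 4 in pericyte-like cells, 2 in cluster 16, 1 in cluster 6 and 1 in cluster 9 of GFP+, 3 in tSC-like and 4 in tenocyte-like cells. The mean of each cell's CPM gave 0 in cluster 16 and 1 in cluster 9 of GFP- and 3 in endothelial-like cells of GFP+. Without the top cell there were 2 in cluster 9 of GFP-, 4 in pericyte-like cells, 1 in cluster 16 of GFP+ and 3 in endothelial-like, 3 in tSC-like and 5 in tenocyte-like cells of GFP+. Clustering with the members gave 3 in cluster 16 and 1 in cluster 9 of GFP+, resolution 2 gave 5 in macrophage-like cells, the stricter filter gave 2 in smooth muscle-like cells, and no doublet removal gave 14 in tSC-like cells. The minimum of 50 UMIs and the free RNA subtraction leave fewer genes to compare, and the cause of the others was not tested.

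The sign turned for Ackr1 in cluster 9 of GFP- (0.22) and Ccl17 in the whole GFP+ library (0.26) with the mean of each cell's CPM, for Cxcl14 (−4.29) and Ccl7 (−1.90) in GFP- endothelial-like cells at resolution 2, and for Cxcl9 in macrophage-like cells (1.22) with the stricter filter. That filter was not run for cluster 16 in either sort, pericyte-like cells of GFP-, or clusters 6 and 9 of GFP+, which had under 50 cells. Depth and cell number limit WT GFP- most.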
